A study of Mus musculus with 36 samples.

Results

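Club cells and goblet cells are the secretory cells of the conducting airway. Club cells release small secreted proteins, the secretoglobins, together with detoxifying enzymes and host-defence proteins, and goblet cells release the gel-forming mucins that make the airway mucus layer. In mouse airways the club cells are the main secretory cells in health and can take on mucin production when the airway is inflamed. Macrophages are not the usual source of these proteins, so their transcripts in lavage macrophage preparations describe the preparation as a whole.

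The 10 secretory transcripts described here were Scgb1a1, Scgb3a1 and Scgb3a2 (secretoglobins), Muc5b and Muc5ac (gel-forming mucins), Agr2 (a protein disulfide isomerase needed for mucin folding), Bpifa1 and Bpifb1 (secreted BPI fold proteins of the airway lining), Lypd2 (a Ly6 domain protein) and Reg3g (a secreted antibacterial lectin). They were taken by name from the array annotation, 1 measured feature for each, out of 18820 genes that had a feature with a single gene symbol. Each of the 10 had exactly 1 such feature, and all 10 were analysed with no filter on low values.

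The cells came from lung lavage of male Scnn1b-Tg mice and their wild-type (WT) littermates on a C57Bl/6N Tac background. Scnn1b-Tg mice carry extra Scnn1b, which encodes a subunit of the sodium channel ENaC, under the club cell promoter of Scgb1a1, and so have a dehydrated airway surface. Lavage cells were depleted of Ly-6G-positive granulocytes with magnetic beads, and the remaining fraction was measured on gene arrays (Mouse Gene 1.0 ST). The study's methods describe that fraction as macrophages with rare lymphocytes, dendritic cells and epithelial cells. Scnn1b-Tg mice kept specific pathogen free (SPF) were sampled at post-natal day (PND) 0 (n = 3 arrays), PND 3 (n = 4), PND 10 (n = 4) and PND 42 (n = 4), and germ-free (GF) Scnn1b-Tg mice at PND 42 (n = 3). WT mice were sampled in the same 5 settings with the same numbers, which gave 36 arrays in 10 groups. At PND 0, 3 and 10 an array held the pooled cells of 3 pups, whereas at PND 42 it held 1 mouse. GF mice lived in a separate gnotobiotic facility, so housing and facility cannot be told apart.

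Values are log2 intensities as deposited, on which 1 unit is a 2-fold change. The median of all features lay between 3.72 and 4.06 in the 36 arrays, and a group mean inside or below that range is called near background here. Levels are compared only within a gene, since probes of different genes differ in brightness. Differences were tested with limma over 28940 features in 1 fit of all 10 groups, and a gene was called where the Benjamini-Hochberg adjusted p over all features was below 0.05. P-values measure the spread between arrays of a group.

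The labelled cell type was borne out by its markers after birth, and less so at PND 0. The mean of 16 alveolar macrophage genes was 8.32 to 9.33 over the 6 arrays of PND 0 and 9.21 to 10.34 over the other 30 arrays. Siglecf, a surface lectin of mature alveolar macrophages, averaged 5.45 in Scnn1b-Tg and 6.24 in WT preparations at PND 0, and between 7.86 and 9.71 in every later group. Cd68, a lysosomal macrophage protein, averaged 11.12 to 11.84 in all 10 groups. Marker lists of general epithelial and ciliated cells were higher at PND 0 than later, and the cells that carried them were not identified by these data. Not every marker followed: Cdh1, E-cadherin, averaged 9.25 in WT preparations at PND 0 and 9.31 in GF Scnn1b-Tg adults. The neutrophil list averaged 5.49 in Scnn1b-Tg and 5.18 in WT preparations at PND 0, and 6.92 in Scnn1b-Tg preparations at PND 3. The mean of 12 general epithelial genes was 7.38 to 8.65 over the arrays of PND 0 and 4.38 to 4.85 over all later arrays. That of 13 ciliated cell genes was 5.45 to 6.83 at PND 0 and 3.89 to 4.46 later. Acta1, skeletal muscle actin, averaged 9.13 in Scnn1b-Tg and 4.43 in WT preparations at PND 0 and 3.28 to 3.43 in the later groups. The transgene itself did not follow its label in 1 array. Scnn1b read 10.23, 10.33 and 5.47 in the 3 arrays labelled Scnn1b-Tg at PND 0, against 4.06, 5.27 and 6.68 in WT. Genotype differences at PND 0 whose call rests on the array labelled Scnn1b-Tg replicate 3 are therefore also given without it. The Scnn1b-Tg changes from PND 0 to PND 3 are given with that array. The 9 of them that were called kept their call with any 1 array left out. At PND 3 the label held in every array, with Scnn1b at 5.37 to 6.03 in Scnn1b-Tg and 3.09 to 3.55 in WT preparations. From PND 10 on, all its group means were near background, at 3.82, 3.88 and 3.59 in Scnn1b-Tg and 3.21, 3.21 and 3.41 in WT preparations (PND 10, PND 42 GF and PND 42 SPF). The genotypes did not overlap in GF adults (3.47 to 4.18 in Scnn1b-Tg, 3.11 to 3.30 in WT) and overlapped at PND 10 and in SPF adults, and no difference was called in these 3 settings, so it is a weak check of the labels there.

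**Figure D1:**
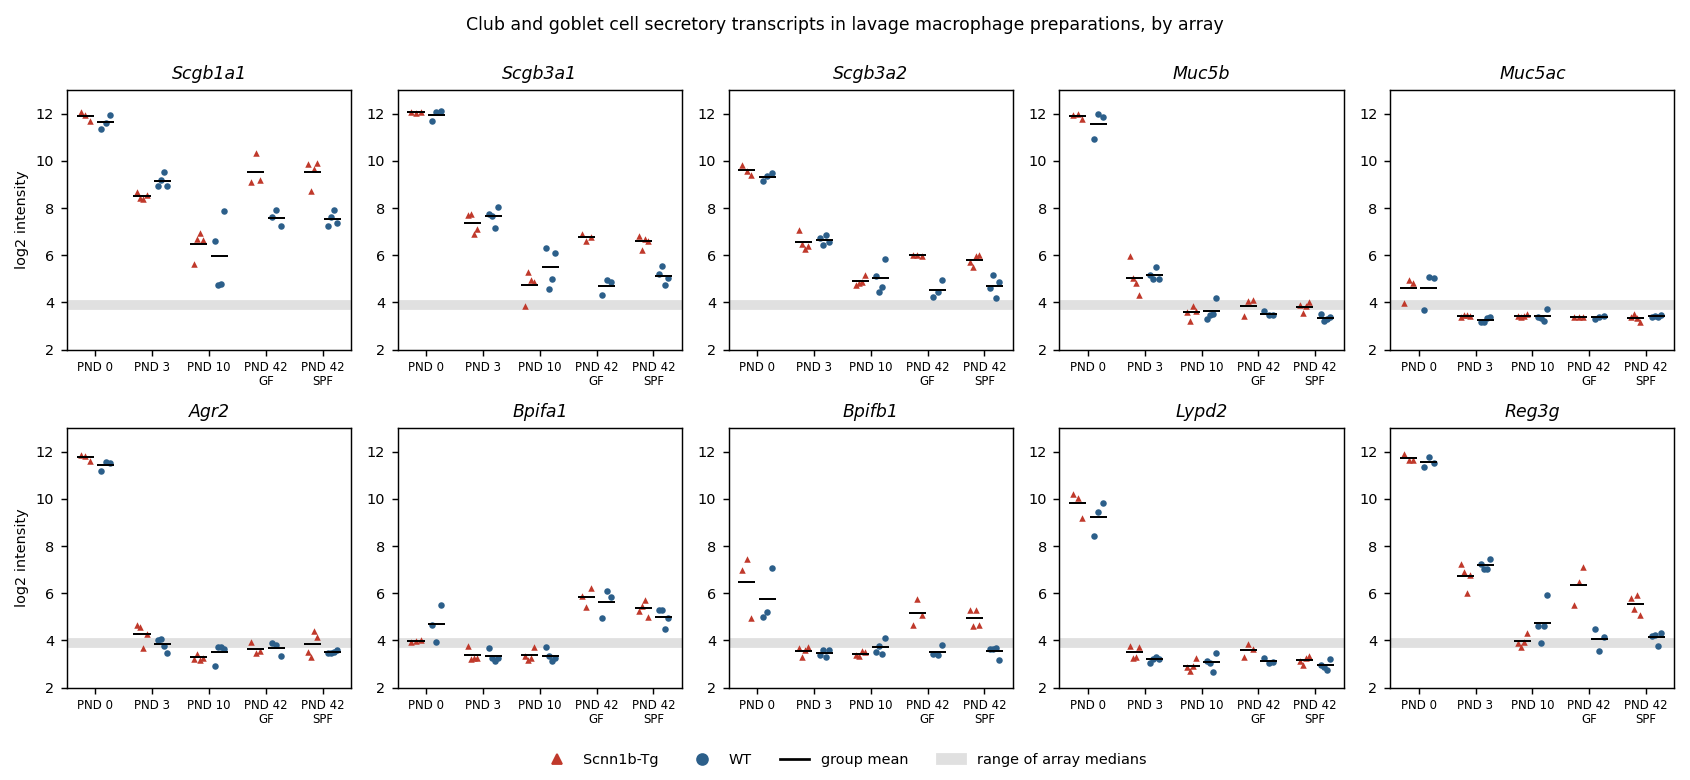
Log2 intensity of the 10 secretory transcripts in each of the 36 arrays, with ages and housing along the horizontal axis, Scnn1b-Tg arrays as red triangles, WT arrays as blue circles, bars at the group means and a grey band at the range of array medians (3.72 to 4.06). All 10 panels share 1 scale, but levels can be compared only within a panel. Scgb1a1, Scgb3a1, Scgb3a2, Bpifb1 and Reg3g separate the genotypes at PND 42 in both housings, and most transcripts are highest at PND 0.

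At birth the secretory transcripts were at their highest in these preparations, apart from Bpifa1, and no genotype difference was called. Muc5b, the main gel-forming mucin of mouse airways, read 11.93, 11.99 and 11.77 in Scnn1b-Tg and 10.92, 11.97 and 11.85 in WT preparations at PND 0. Scgb3a1 read 12.08, 12.02 and 12.08 in Scnn1b-Tg and 11.70, 12.08 and 12.10 in WT preparations. These 2 transcripts, with Scgb1a1, Agr2 and Reg3g, averaged between 11.43 and 12.06 in both genotypes, close to the highest value on any array (12.89). How well the arrays still separate levels so near their top was not tested. For these transcripts, genotype differences at PND 0 and falls from PND 0 may therefore be larger than measured. Scgb3a2 averaged 9.60 in Scnn1b-Tg and 9.32 in WT preparations, and Lypd2 9.81 and 9.24 in the same order. Bpifb1 varied most at birth, at 6.97, 7.45 and 4.96 in Scnn1b-Tg and 4.99, 5.20 and 7.06 in WT preparations. Muc5ac, the mucin of metaplastic goblet cells, read 3.97, 4.96 and 4.84 in Scnn1b-Tg and 3.68, 5.08 and 5.02 in WT preparations. Bpifa1 was near background in Scnn1b-Tg preparations (3.93, 3.98 and 4.02) and read 4.64, 3.95 and 5.48 in WT.

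None of the 10 transcripts was called between genotypes at PND 0, where 4.33% of all features were. At an unadjusted p below 0.05, 4895 of the 28940 features passed. The differences ran from -0.71 for Bpifa1 (SE 0.29, adjusted p = 0.19) to 0.71 for Bpifb1 (SE 0.43, adjusted p = 0.436). Agr2 was the 1 transcript whose groups did not overlap, at 11.87, 11.81 and 11.59 in Scnn1b-Tg against 11.20, 11.58 and 11.52 in WT preparations, a difference of 0.32 (SE 0.25, adjusted p = 0.583), where 10.9% of all features did not overlap. Array replicate 3 decided 2 of these values: without the array labelled Scnn1b-Tg replicate 3, Bpifb1 was 1.46 higher (adjusted p = 0.0184) and Lypd2 0.87 higher (adjusted p = 0.0455) in Scnn1b-Tg. Without replicate 3 of WT they were 1.36 and 0.87 higher (adjusted p = 0.0289 and 0.0296), and without WT replicate 2 Bpifa1 was called lower in Scnn1b-Tg (-1.08, adjusted p = 0.0302).

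Of all comparisons made, the median change of the secretory transcripts was largest between PND 0 and PND 3. In Scnn1b-Tg preparations 9 of the 10 were called lower, where 14.0% of all features were, and in WT preparations all 10 were, where 12.0% were. The median change of the 10 was -4.06 in Scnn1b-Tg and -3.49 in WT preparations, against 0.039 and 0.002 over all features. Bpifa1 in Scnn1b-Tg preparations was the transcript not called (-0.61, SE 0.27, adjusted p = 0.0989, and 0.0246 with those 2 groups fitted alone). All 3 arrays of PND 0 lay above all 4 arrays of PND 3 for every one of the 10 transcripts in both genotypes, a separation downward found for 13.4% of all features in Scnn1b-Tg and 12.7% in WT preparations. In such bulk preparations, fewer secretory cells and less RNA per cell cannot be told apart.

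Agr2, Muc5b and Lypd2 fell furthest. Agr2 read 4.64, 4.55, 3.67 and 4.29 in Scnn1b-Tg preparations at PND 3 and 11.59 to 11.87 at PND 0, a 177-fold lower level (log2 change -7.47, SE 0.23, adjusted p = 8.18e-21). In WT preparations it read 4.02, 4.07, 3.77 and 3.48 at PND 3 and 11.20 to 11.58 at PND 0, a 194-fold lower level (log2 change -7.60, SE 0.23, adjusted p = 6.26e-21). The WT mean at PND 3 (3.83) was near background, so the measured fold is limited by it. Muc5b was 117-fold lower in Scnn1b-Tg (log2 change -6.87, SE 0.27) and 85.8-fold lower in WT preparations (log2 change -6.42, SE 0.27), and it was still above background at PND 3, at 4.30 to 5.96 and 4.98 to 5.48. Lypd2 dropped to 3.24 to 3.77 in Scnn1b-Tg and 3.06 to 3.30 in WT preparations at PND 3, all near background. Muc5ac, at background at PND 3, had a smaller measured change of -1.17 in Scnn1b-Tg and -1.34 in WT preparations (SE 0.21 for both).

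The secretoglobins and Reg3g fell less far and were still well measured at PND 3. Scgb1a1 fell by 3.41 in Scnn1b-Tg (10.6-fold, SE 0.46) and by 2.49 in WT preparations (5.63-fold, SE 0.46). Scgb3a1 was 26.1-fold lower in Scnn1b-Tg and 19.8-fold lower in WT preparations, and Scgb3a2 8.24-fold and 6.41-fold lower. Reg3g was 32.3-fold lower in Scnn1b-Tg and 20.5-fold lower in WT preparations, where its arrays still read 7.22, 7.04, 7.02 and 7.46 at PND 3. A difference between genotypes in these age changes was tested and called for 0 of the 10 transcripts, where 3.27% of all features were, and the differences ran from -0.92 for Scgb1a1 (95% interval -2.26 to 0.42, adjusted p = 0.572) to 0.75 for Bpifa1 (-0.05 to 1.54, adjusted p = 0.376). Without replicate 3 of both genotypes at PND 0, Bpifb1 was called, at -2.02 (adjusted p = 0.000316).

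Most listed markers of other airway cells fell over the same interval, but not every list did. Of 15 other club cell genes measured, 13 were called lower in each genotype, among them Chad (-7.29 in Scnn1b-Tg, -6.48 in WT), a leucine-rich matrix protein, and Cyp2f2 (-4.91 and -4.69), a club cell cytochrome P450. Of 23 other goblet cell and mucus genes, 17 were called lower in each genotype, led by Tff2 (-5.77 in Scnn1b-Tg, -4.44 in WT), a trefoil peptide. Of 13 ciliated cell genes all 13 were lower in both genotypes, of 12 general epithelial genes 12 were lower in Scnn1b-Tg and 11 in WT preparations, and of 11 alveolar type 2 cell genes 8 were lower in each. Of 14 other secreted defence proteins 8 were called lower in each genotype, while 4 were called higher in Scnn1b-Tg and 2 in WT preparations. Of 12 gland genes 9 were not called in each genotype. Skeletal muscle genes, which do not mark airway cells, were also called lower, 11 of 12 in Scnn1b-Tg and 1 in WT preparations. The part of any of these cells in the change of the 10 transcripts was not tested.

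**Figure D2:**
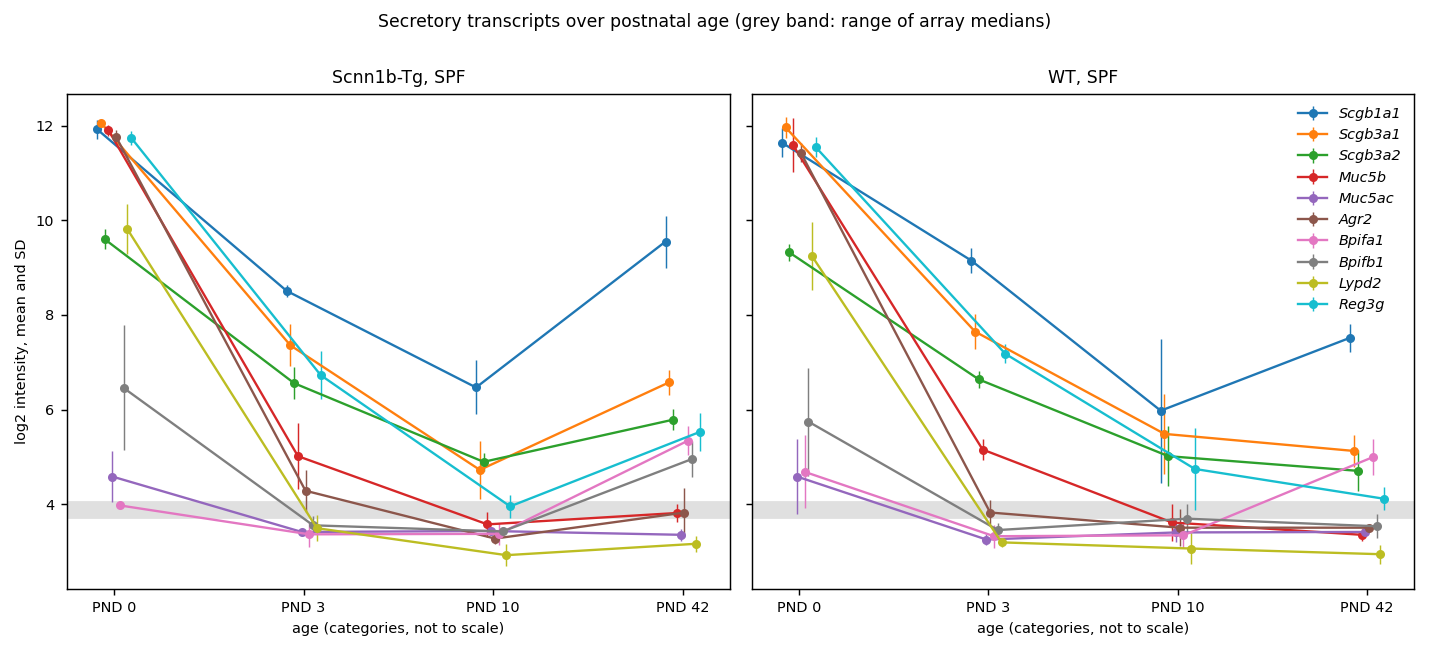
Mean log2 intensity with SD (error bars) of the 10 secretory transcripts at PND 0 (n = 3 arrays), 3, 10 and 42 (n = 4 each) in SPF Scnn1b-Tg mice on the left and SPF WT mice on the right, with the grey band at the range of array medians. The lines fall between PND 0 and PND 3 in both genotypes. From PND 10 to PND 42 the lines for Scgb3a1, Scgb3a2, Bpifb1 and Reg3g turn upward in the Scnn1b-Tg panel and not in the WT panel. A difference between genotypes over that interval was called for Scgb3a1 and Reg3g only.

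Between PND 3 and PND 10 the secretoglobins, Muc5b and Reg3g fell again. In Scnn1b-Tg preparations 6 of the 10 transcripts were called lower, where 0.936% of all features were. In WT preparations 5 were called lower, where 0.100% of all features were, so that these 5 were among only 29 features called lower in that interval. Reg3g changed by -2.76 in Scnn1b-Tg (6.79-fold, SE 0.32, adjusted p = 2.6e-06) and by -2.43 in WT preparations (5.39-fold, SE 0.32, adjusted p = 0.000248). Its Scnn1b-Tg mean at PND 10 (3.96) was near background, as were those of Muc5b and Agr2 in both genotypes, so these measured changes are limited by it. Scgb3a1 changed by -2.62 and -2.16 in the same order, Scgb3a2 by -1.66 and -1.62, Muc5b by -1.44 and -1.54, and Scgb1a1 by -2.04 and -3.16. Agr2 was called only in Scnn1b-Tg preparations (-1.01, adjusted p = 0.00749, against -0.33, adjusted p = 0.972, in WT), and whether that change differed between genotypes was not tested. With the 2 WT groups fitted alone none of the 5 was called, and with the 2 Scnn1b-Tg groups fitted alone Muc5b was not called.

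Arrays of WT mice at PND 10 were more spread than those of any other group for Scgb1a1. It read 6.59, 4.72, 4.78 and 7.86 there, against 5.64, 6.68, 6.93 and 6.63 in Scnn1b-Tg preparations. WT replicate 4 held the highest value of the group for 7 of the 10 transcripts, with Reg3g at 5.94 where the other 3 arrays read 3.90 to 4.59, and Muc5b at 4.20 where they read 3.30 to 3.50. That array also had the highest mean of the other goblet cell genes, 3.88 against 3.56 to 3.62, and of the general epithelial genes, 4.74 against 4.38 to 4.70. The mean of the other club cell genes was 3.47 there and 3.38 to 3.46 in the other 3 arrays. The ciliated cell mean of that array was the lowest of the group, 3.94 against 4.00 to 4.20. Its alveolar macrophage mean was the highest, 10.11 against 9.83 to 9.96.

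No genotype difference was called for the 10 transcripts at PND 3 or at PND 10, where 4.05% and 1.57% of all features were. At an unadjusted p below 0.05, 3874 features passed at PND 3 and 3206 at PND 10. At PND 3 Scgb1a1 was the transcript whose groups did not overlap, where 10.5% of all features did not. It read 8.67, 8.41, 8.39 and 8.57 in Scnn1b-Tg and 8.93, 9.20, 9.51 and 8.95 in WT preparations, so that all 4 Scnn1b-Tg arrays were below all 4 WT arrays (difference -0.64, SE 0.43, adjusted p = 0.616). With those 2 groups fitted alone the adjusted p was 0.0358. At PND 10 Reg3g (-0.79, SE 0.32, adjusted p = 0.296) and Scgb3a1 (-0.76, SE 0.30, adjusted p = 0.279) had the largest differences, and their groups overlapped.

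Some other secreted defence proteins did differ at PND 3. Of 14 measured, 5 were called higher in Scnn1b-Tg preparations, where 4.05% of all features were called in either direction. Among the 5 were Lcn2 (5.35, adjusted p = 9.51e-06), an iron-withholding lipocalin that neutrophils and epithelium both make, Saa3 (4.68), an acute phase protein, and Chil1 (4.27), a chitinase-like protein. The neutrophil list, which also holds Lcn2, had 5 of 14 genes called higher at that age, and its mean was 6.43 to 7.66 in Scnn1b-Tg and 4.91 to 6.20 in WT preparations. Over the same arrays 0 of 15 other club cell genes were called, and 1 of 23 other goblet cell genes, the glycosyltransferase Galnt12, was lower (-0.71, adjusted p = 0.05 after rounding).

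**Figure D3:**
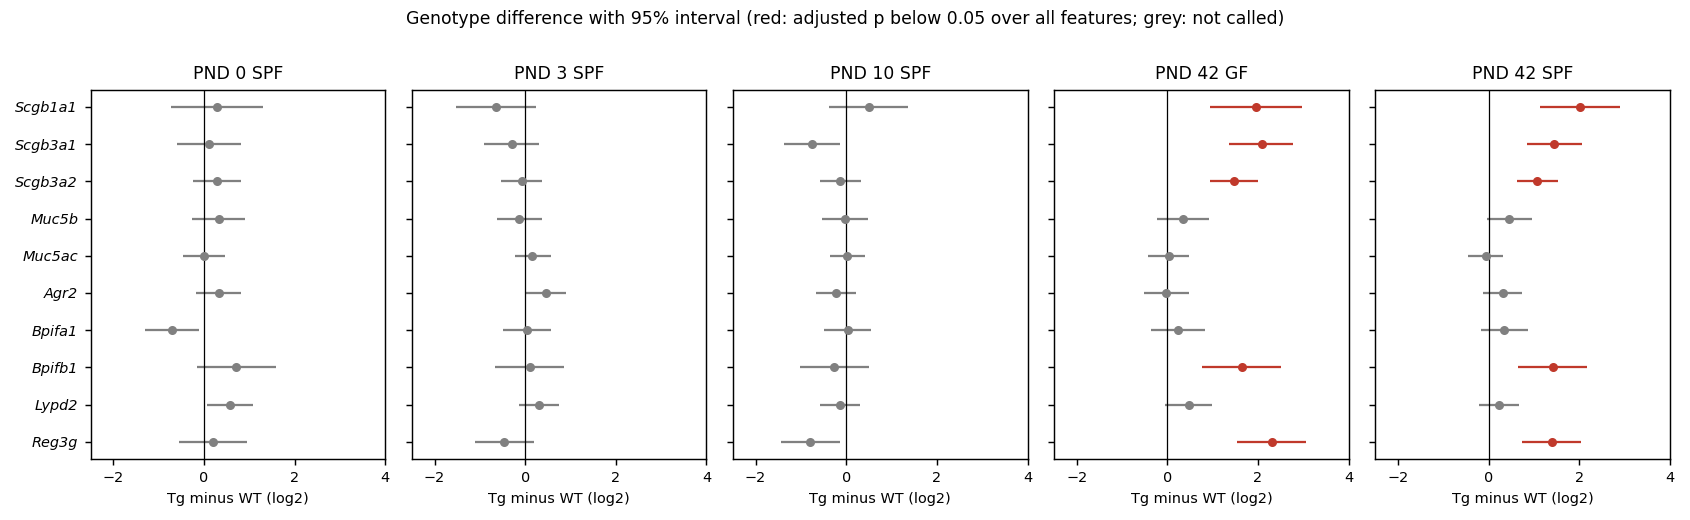
Difference in log2 intensity, Scnn1b-Tg minus WT, for the 10 secretory transcripts at each age and housing, with 95% intervals as bars, red where the adjusted p over all 28940 features was below 0.05 and grey where it was not. No interval is red at PND 0, 3 or 10, and the same 5 transcripts are red at PND 42 in GF and in SPF mice.

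In adult mice 5 of the 10 secretory transcripts were called higher in Scnn1b-Tg preparations, and they were the same 5 genes in both housings: Scgb1a1, Scgb3a1, Scgb3a2, Bpifb1 and Reg3g. In GF mice 3.14% of all features were called higher, and in SPF mice 2.72%. All arrays of the Scnn1b-Tg groups lay above all WT arrays for each of the 5, in GF and in SPF mice. In GF mice Lypd2 brought the transcripts with no overlap upward to 6 of 10, where 9.21% of all features had none, and in SPF mice Muc5b did so, where 5.59% had none. The median difference of the 10 was 0.96 in GF and 0.77 in SPF mice, against -0.025 and -0.02 over all features.

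Scgb1a1 encodes the club cell secretory protein and lends its promoter to the transgene. In GF mice it read 9.09, 10.33 and 9.21 in Scnn1b-Tg and 7.61, 7.92 and 7.24 in WT preparations, a 3.88-fold higher level (difference 1.96, SE 0.50, adjusted p = 0.0155). In SPF mice it read 9.85, 8.74, 9.67 and 9.93 in Scnn1b-Tg and 7.23, 7.60, 7.91 and 7.36 in WT preparations, a 4.07-fold higher level (difference 2.02, SE 0.43, adjusted p = 0.00299). Replicate 2 was the high array of the GF Scnn1b-Tg group and the low array of the SPF one. The GF call was lost without Scnn1b-Tg replicate 2 or without WT replicate 3, with differences of 1.56 to 2.18 and adjusted p up to 0.119 over the 6 arrays left out in turn, whereas the SPF call held without any 1 of its 8 arrays.

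The other secretoglobins separated the genotypes with less spread. Scgb3a1 read 6.91, 6.62 and 6.79 in GF Scnn1b-Tg and 4.31, 4.93 and 4.85 in GF WT preparations (4.22-fold higher, difference 2.08, SE 0.34, adjusted p = 0.000164). In SPF mice it read 6.82, 6.21, 6.70 and 6.61 in Scnn1b-Tg and 5.22, 5.55, 4.74 and 5.02 in WT preparations (2.73-fold higher, difference 1.45, SE 0.30, adjusted p = 0.00218). Scgb3a2, a related secretoglobin, read 6.03, 6.00 and 5.95 in GF Scnn1b-Tg and 4.24, 4.44 and 4.93 in GF WT preparations (difference 1.46, SE 0.26, adjusted p = 0.000391). The 3 Scnn1b-Tg arrays were thus within 0.09 of each other. In SPF mice Scgb3a2 read 5.71, 5.52, 5.95 and 5.99 in Scnn1b-Tg and 4.62, 5.18, 4.17 and 4.87 in WT preparations (difference 1.08, SE 0.22, adjusted p = 0.00227). Neither gene lost its call in either housing when any 1 array was left out.

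Reg3g, an antibacterial lectin made by epithelium, read 5.48, 6.47 and 7.12 in GF Scnn1b-Tg and 4.47, 3.56 and 4.15 in GF WT preparations (4.91-fold higher, difference 2.30, SE 0.37, adjusted p = 0.000104). In SPF mice it read 5.81, 5.32, 5.92 and 5.06 in Scnn1b-Tg and 4.20, 4.22, 3.77 and 4.32 in WT preparations (2.64-fold higher, difference 1.40, SE 0.32, adjusted p = 0.00601). The 3 GF Scnn1b-Tg arrays spanned a wider range than the 4 SPF ones, and both calls held without any 1 array. The GF genotype difference exceeded the SPF one by 0.90, with a 95% interval of -0.10 to 1.89 (adjusted p = 1), so a difference between housings was not shown.

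The 2 BPI fold genes, which stand on chromosome 2 with 1 protein-coding gene between them, differed in their calls. Bpifb1 read 4.65, 5.75 and 5.07 in GF Scnn1b-Tg and 3.41, 3.36 and 3.79 in GF WT preparations (difference 1.64, SE 0.43, adjusted p = 0.0194). In SPF mice it read 5.29, 4.59, 5.29 and 4.66 in Scnn1b-Tg and 3.65, 3.65, 3.69 and 3.16 in WT preparations (difference 1.42, SE 0.37, adjusted p = 0.0191). Both WT groups were near background, so the measured folds of 3.11 in GF and 2.68 in SPF mice are limited by it. The GF call was lost in 4 of 6 fits that left out 1 array (WT replicate 1 or 2, Scnn1b-Tg replicate 2 or 3) and the SPF call in 3 of 8 (WT replicate 4, Scnn1b-Tg replicate 1 or 3), with adjusted p up to 0.128 and 0.0741. Bpifa1 read 5.90, 5.43 and 6.23 in GF Scnn1b-Tg and 4.94, 6.09 and 5.82 in GF WT preparations (difference 0.24, 95% interval -0.36 to 0.84, adjusted p = 0.85). In SPF mice it read 5.25, 5.44, 5.72 and 5.0 in Scnn1b-Tg and 5.30, 5.28, 4.48 and 4.93 in WT preparations (difference 0.35, 95% interval -0.17 to 0.87, adjusted p = 0.661). Bpifa1 had its highest group means in adults, and its groups overlapped between genotypes in both housings. Whether the genotype difference itself differed between the 2 genes was not tested.

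Sequences at the start sites of 5 of the 10 genes were taken from the RefSeq table of mouse promoters (build GRCm38.p6). Each ran from 250 bases before to 50 bases after the start. The remaining genes were not compared here, whether or not that table holds a promoter for them. The promoters of 3 genes that were higher in adult Scnn1b-Tg preparations, Bpifb1, Reg3g and Scgb3a1, are shown beside that of Bpifa1, which was not called, on the strand of the gene and from 5′ to 3′. They are chr2:154200130-154200429 for the second of 2 Bpifb1 starts, chr6:78468825-78469124 (minus strand) for Reg3g, chr11:49663345-49663644 for Scgb3a1 and chr2:154142630-154142929 for Bpifa1, all but Reg3g on the plus strand. Capitals mark the TATA box letters TATAAA and the stretch TATTTACNTTGGAGA, searched on both strands.
Bpifb1: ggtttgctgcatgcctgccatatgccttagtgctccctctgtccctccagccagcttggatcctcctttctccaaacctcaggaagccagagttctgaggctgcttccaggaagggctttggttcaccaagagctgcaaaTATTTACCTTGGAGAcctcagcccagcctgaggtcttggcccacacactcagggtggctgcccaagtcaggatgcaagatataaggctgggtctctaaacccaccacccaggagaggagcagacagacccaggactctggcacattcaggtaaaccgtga
Reg3g: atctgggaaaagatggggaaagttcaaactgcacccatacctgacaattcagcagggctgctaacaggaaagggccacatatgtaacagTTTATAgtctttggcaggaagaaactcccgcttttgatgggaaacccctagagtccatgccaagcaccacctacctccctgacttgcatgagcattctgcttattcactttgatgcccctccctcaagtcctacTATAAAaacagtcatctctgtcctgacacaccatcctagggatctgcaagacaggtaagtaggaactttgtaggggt
Scgb3a1: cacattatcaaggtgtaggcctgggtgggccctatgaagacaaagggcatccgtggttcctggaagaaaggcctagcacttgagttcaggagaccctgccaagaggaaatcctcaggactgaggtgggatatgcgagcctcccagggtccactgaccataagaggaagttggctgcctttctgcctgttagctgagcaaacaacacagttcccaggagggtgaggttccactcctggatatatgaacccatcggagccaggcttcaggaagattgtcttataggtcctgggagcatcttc
Bpifa1: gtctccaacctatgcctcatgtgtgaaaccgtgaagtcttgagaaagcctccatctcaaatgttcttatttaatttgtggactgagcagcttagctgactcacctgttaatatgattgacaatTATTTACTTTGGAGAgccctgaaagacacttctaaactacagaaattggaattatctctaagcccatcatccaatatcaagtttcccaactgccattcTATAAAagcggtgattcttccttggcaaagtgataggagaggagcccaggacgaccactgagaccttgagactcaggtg

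The stretch TATTTACNTTGGAGA begins with TATTTAC, a core of the forkhead factor motif, and stands 127 bases before the start of Bpifa1 and 110 bases before the second start of Bpifb1. It was found by comparing these 2 promoters and so was chosen after the sequences were seen. It occurred in 2 of 32851 promoters (0.00609%), these 2, whereas TATTTAC alone occurred in 3.04%. TATAAA, found in 13.6% of promoters, stood 29 bases before the start of Bpifa1 and 27 bases before that of Reg3g, with another on the opposite strand of Reg3g, and was not found in the Bpifb1 and Scgb3a1 windows. The STAT motif TTCNNNGAA, found in 8.3% of promoters, occurred once in Bpifb1 and once in Scgb3a1 and not in Reg3g or Bpifa1. These are matches of letters and not measured sites.

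The mucins, Agr2 and Lypd2 stayed near background in adults. Muc5b read 3.89, 3.53, 3.84 and 4.01 in SPF Scnn1b-Tg and 3.51, 3.20, 3.31 and 3.40 in SPF WT preparations, with no overlap but a difference of only 0.46 (95% interval -0.04 to 0.97, adjusted p = 0.436, and 0.0469 with those 2 groups fitted alone). Muc5ac, whose gene lies next to Muc5b on chromosome 7, read 3.40, 3.50, 3.35 and 3.18 in SPF Scnn1b-Tg and 3.40, 3.44, 3.38 and 3.45 in SPF WT preparations. Its difference was 0.03 (95% interval -0.43 to 0.48) in GF and -0.06 (-0.46 to 0.33) in SPF mice. Agr2 differed by -0.02 in GF mice and by 0.32 in SPF mice (adjusted p = 0.612), where replicates 3 and 4 of Scnn1b-Tg read 4.40 and 4.13 and the other 6 arrays 3.29 to 3.59. Lypd2 read 3.31, 3.83 and 3.62 in GF Scnn1b-Tg and 3.26, 3.02 and 3.08 in GF WT preparations (difference 0.47, adjusted p = 0.434). In the fit of all groups, no difference was detectable in these 4 transcripts at levels this close to background.

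Between PND 10 and PND 42, 6 of the 10 transcripts were called higher in SPF Scnn1b-Tg preparations, where 2.58% of all features were, and 2 in SPF WT preparations, where 1.32% were. Scgb1a1 rose 8.43-fold in Scnn1b-Tg (change 3.08, SE 0.43, adjusted p = 2.65e-05) and 2.90-fold in WT preparations (change 1.54, SE 0.43, adjusted p = 0.0496). The WT groups overlapped for Scgb1a1, and its WT call was lost in 6 of 8 fits that left out 1 array, namely replicates 2 and 3 of PND 10 and each replicate of PND 42 (adjusted p up to 0.261). Bpifa1 rose in both genotypes, by 1.97 in Scnn1b-Tg (3.92-fold, SE 0.25, adjusted p = 7.88e-06) and by 1.65 in WT preparations (3.15-fold, SE 0.25, adjusted p = 0.000136), with every adult array above every array of PND 10. Its PND 10 means (3.38 and 3.35) were near background, as were those of Reg3g in Scnn1b-Tg and of Bpifb1 in both genotypes, which limits these measured changes. Scgb3a1 (1.85, SE 0.30), Reg3g (1.56, SE 0.32), Bpifb1 (1.52, SE 0.37) and Scgb3a2 (0.90, SE 0.22) rose in Scnn1b-Tg preparations, where their WT changes were -0.36, -0.63, -0.17 and -0.31, none of them called. The Scgb3a2 call was lost without Scnn1b-Tg replicate 4 of PND 42 (highest adjusted p 0.0627).

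The genotype difference itself was tested between ages. It was called larger at PND 42 than at PND 10 for 2 of the 10 transcripts, where 0.418% of all features were called in that direction: Scgb3a1 by 2.21 (95% interval 1.35 to 3.07, adjusted p = 0.00637) and Reg3g by 2.19 (1.27 to 3.12, adjusted p = 0.013). It was called larger at PND 42 than at PND 3 for 3, where 0.705% were: Scgb1a1 by 2.66 (1.42 to 3.91, adjusted p = 0.0186), Reg3g by 1.86 (0.93 to 2.78, adjusted p = 0.0306) and Scgb3a1 by 1.75 (0.88 to 2.61, adjusted p = 0.0294). Leaving out 1 array ended the call of Reg3g against PND 3 in 6 of 16 fits (adjusted p up to 0.0956) and that of Scgb3a1 in 9 (up to 0.0859), with arrays of all 4 groups among them, and that of Scgb1a1 without Scnn1b-Tg replicate 4 of PND 42 (adjusted p = 0.0515), whereas both calls against PND 10 held in all 16. Scgb3a2 missed the threshold against both ages (1.17, adjusted p = 0.064, and 1.21, adjusted p = 0.0763), as did Bpifb1 (1.32, adjusted p = 0.377, and 1.69, adjusted p = 0.207). With the 4 compared groups fitted alone Bpifb1 was called against both ages (adjusted p = 0.00715 and 0.00437) and Scgb3a2 against PND 3 (adjusted p = 0.0426).

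No change with housing was called for any of the 10 transcripts. In Scnn1b-Tg mice 0 were called between GF and SPF housing, where 0.142% of all features were, and in WT mice 0, where 0.0657% were. At an unadjusted p below 0.05, 2250 features passed in Scnn1b-Tg and 1306 in WT mice. Scgb1a1 differed by 0.00 in Scnn1b-Tg (95% interval -0.95 to 0.95) and by 0.06 in WT mice (-0.89 to 1.02). The largest differences were 0.83 for Reg3g in Scnn1b-Tg mice (0.13 to 1.54, adjusted p = 0.518) and 0.61 for Bpifa1 in WT mice (0.05 to 1.18, adjusted p = 1). The genotype difference in GF minus that in SPF mice was called for 0 of the 10 transcripts and for 1 of all features (0.00346%), and 908 features passed at an unadjusted p below 0.05.

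No gene on the lists of other club cell and goblet cell genes was called between the adult genotypes. Of 15 other club cell genes and 23 other goblet cell and mucus genes, 0 were called in either housing, and their median differences were 0.04 and -0.02 in GF and 0.01 and 0.04 in SPF mice. The mean of the other club cell genes was 3.56 to 3.81 in GF Scnn1b-Tg and 3.61 to 3.69 in GF WT preparations, and 3.42 to 3.68 in SPF Scnn1b-Tg and 3.43 to 3.55 in SPF WT preparations. In each of these 4 groups 18 to 20 of the 23 goblet cell and mucus genes were near background, which limits what could be called. So were 12 or 13 of the 15 club cell genes. Cyp2f2 was one of the exceptions, at 5.43 in Scnn1b-Tg and 6.00 in WT preparations of GF mice (adjusted p = 0.551) and at 5.14 and 4.60 in SPF mice (adjusted p = 0.503). The largest goblet cell difference was that of Clca1, a secreted goblet cell protease, which was 2.30 in GF (adjusted p = 0.0679) and 1.57 in SPF mice (adjusted p = 0.207). Clca1 averaged 5.64 in Scnn1b-Tg and 3.34 in WT preparations of GF mice, and 4.93 and 3.36 in SPF mice.

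Markers of ciliated, other epithelial and gland cells were called in both directions or not called in adults. Foxj1, the ciliated cell regulator, was near background in all 4 adult groups (3.22 to 3.53), and of 13 ciliated cell genes only Tppp3, a tubulin-binding protein, was called, lower in Scnn1b-Tg preparations of GF (-2.08) and SPF mice (-1.63). Of 12 general epithelial genes, Epcam, an adhesion molecule, was lower (-1.50 in GF, -2.10 in SPF) and Cdh1, E-cadherin, higher in both housings (1.42 and 1.03), and the keratin Krt19 was lower in GF mice (-0.83). The mean of that list was 4.55 to 4.85 over all adult arrays. In each adult group 7 to 9 of its 12 genes were near background, and Epcam and Cdh1 were not among them. Bpifa2, a salivary gland protein, averaged 3.08 to 3.21 in the adult groups, and of 12 gland genes only Car6, a secreted carbonic anhydrase, was higher in both housings (1.71 in GF, 1.67 in SPF). Sftpc, the surfactant protein of alveolar type 2 cells, averaged 7.40 in Scnn1b-Tg and 8.08 in WT preparations of GF mice, and 5.50 and 6.40 in SPF mice. Of 11 alveolar type 2 cell genes, Etv5, a transcription factor, and Cd36, a scavenger receptor that macrophages also carry, were higher in both housings (1.32 and 1.20 in GF, 1.19 and 1.01 in SPF), and the protease Napsa was lower in SPF mice (-0.99). Of 14 other secreted defence proteins only Pglyrp1, a peptidoglycan-binding protein of granulocytes, was called, higher in GF mice (3.63, adjusted p = 0.000505). A few neutrophil genes were also called in adults, and most were not. Of 14 such genes, S100a9 (5.26), Retnlg (5.02) and S100a8 (2.29) were called higher and Csf3r lower (-1.44) in GF mice, and Retnlg (2.66) and S100a8 (1.62) higher and Csf3r lower (-1.51) in SPF mice. The mean of that list was 5.08 to 5.72 in GF Scnn1b-Tg and 4.37 to 4.44 in GF WT preparations, and 4.64 to 5.04 in SPF Scnn1b-Tg and 4.32 to 4.45 in SPF WT preparations, without overlap in either housing, whereas the median difference of its genes was 0.26 in GF and 0.14 in SPF mice. Of 16 alveolar macrophage genes, the lipid-binding proteins Fabp4 (1.95) and Fabp5 (0.92) were higher and Cidec, a lipid droplet protein, lower (-1.57) in GF mice. In SPF mice Fabp4 (1.72), Fabp5 (0.76) and Cd68 (0.28) were higher and Cidec (-1.51) and Siglecf (-0.90) lower. The mean of the alveolar macrophage genes was 10.04 to 10.34 in Scnn1b-Tg and 10.14 to 10.27 in WT arrays of adults. The part of any of these cells in the 5 higher transcripts was not tested.

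**Figure D4:**
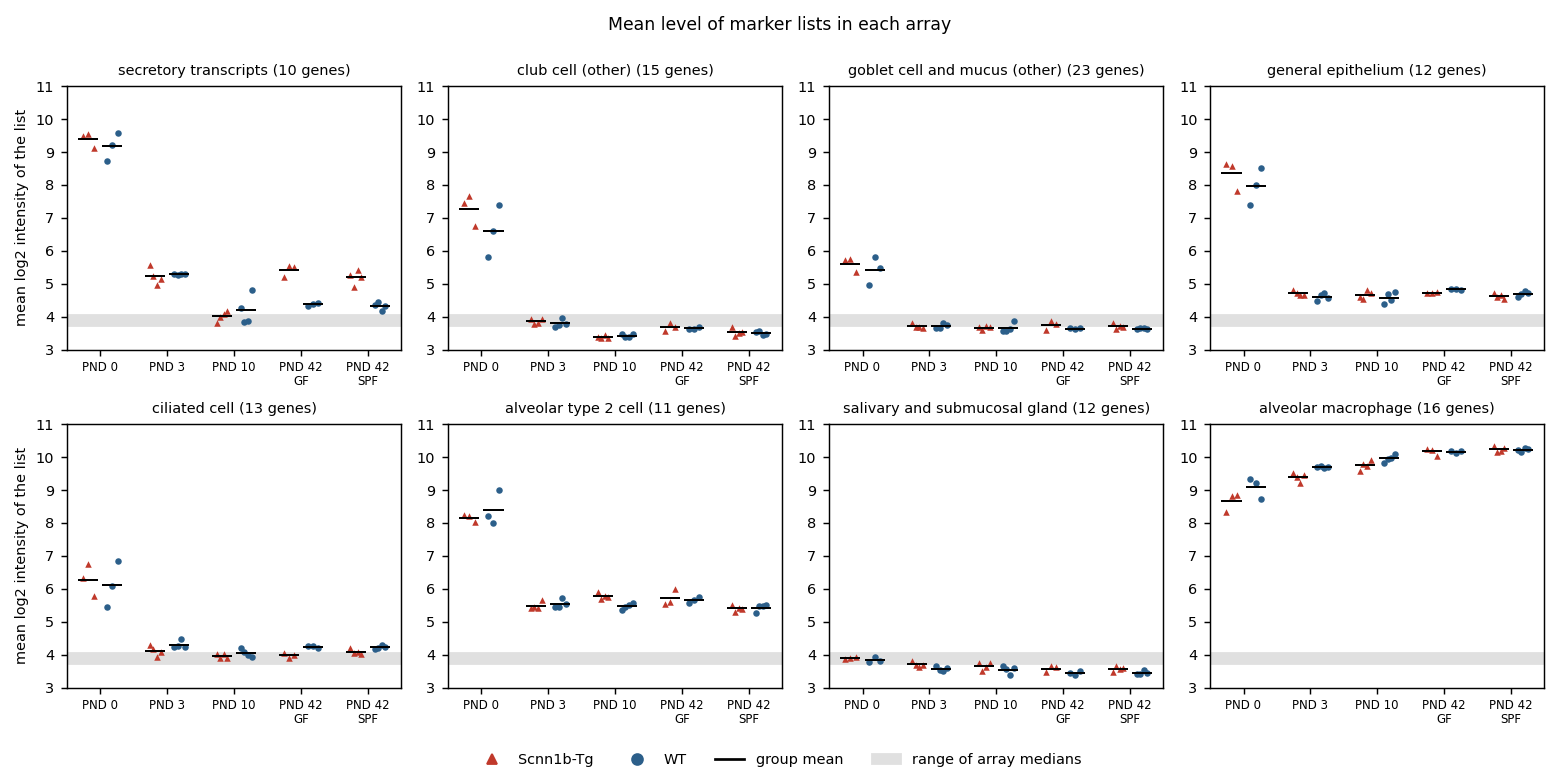
Mean log2 intensity over the 10 secretory transcripts and over 7 marker lists in each array (Scnn1b-Tg as red triangles, WT as blue circles, bars at group means, grey band at the range of array medians). In adults the mean of the secretory transcripts is higher in Scnn1b-Tg than in WT arrays, while the lists of other club cell and goblet cell genes lie in or below the grey band in both genotypes.

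Over all 36 arrays the secretory transcripts varied together, and the 6 arrays of PND 0 stood apart from the other 30. The 45 pairs of transcripts had a median Pearson r of 0.79 (-0.09 to 0.99) over the 36 arrays, of 0.43 (-0.43 to 0.94) over the 30 arrays after PND 0 and of 0.4 (-0.68 to 0.96) over the 14 adult arrays. These are descriptions, and the points share age, genotype and preparation. Scgb3a1 and Scgb3a2 were the closest pair among those that stayed measurable, at 0.99 over 36 arrays, 0.94 after PND 0 and 0.96 in adults. Scgb1a1 and Bpifb1 had an r of 0.93 in adults and 0.59 after PND 0, and Scgb3a1 and Reg3g 0.84 and 0.92. Muc5b and Agr2 stood at 0.98 over all arrays and at 0.29 in adults, where both were near background. Bpifa1 followed no other transcript over all arrays, with values of -0.09 (Muc5b and Scgb3a2) to 0.34 (Bpifb1).

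Genes outside the 10 with the most similar pattern over the 36 arrays differed between the transcripts. For Muc5b they were Chad (r = 0.987), Lrrc23 (0.983), A2ml1 (0.981), Msln (0.981) and Krt18 (0.98). Muc5b averaged 11.58 in WT and 11.90 in Scnn1b-Tg preparations at PND 0 and at most 5.16 in any later group. Its r therefore mainly compares PND 0 with the later ages. For Reg3g they were Cbr2 (0.957), Tff2 (0.951), Wfdc2 (0.948), Aldh1a1 (0.94) and Chad (0.929), of which Cbr2, Aldh1a1 and Chad are on the list of other club cell genes. For Scgb1a1 they were Ece1 (0.852), Wfdc2 (0.838), Tspan13 (0.833), Cyp2f2 (0.833) and Tiam1 (0.825), and for Bpifa1 Nav1 (0.831), Nlrp10 (0.825), Car5b (0.821), Abhd17c (0.801) and Gca (0.798).

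The order of the 10 groups set the transcripts apart by how their adult level stood to that of the young. Scgb1a1 was highest at PND 0 (11.92 in Scnn1b-Tg, 11.64 in WT), and the adult Scnn1b-Tg groups came next (9.54 in GF, 9.55 in SPF), overlapping with WT at PND 3 (9.15). Its lowest groups were those of PND 10 (6.47 in Scnn1b-Tg, 5.98 in WT), which overlapped with each other and, in the WT case, with the adult WT groups. Scgb3a1, Scgb3a2 and Reg3g had PND 0 first, then PND 3, then the adult Scnn1b-Tg groups, with both adult WT groups among the lowest 4. Bpifb1 had the adult Scnn1b-Tg groups directly below PND 0 (5.16 in GF, 4.96 in SPF), and all other groups near background at 3.43 to 3.70. Bpifa1 had the 4 adult groups first, at 5.85 and 5.61 in GF and 5.35 and 5.0 in SPF mice, Scnn1b-Tg before WT each time, and neighbours among them overlapped. For Muc5b, Agr2 and Lypd2 the 2 groups of PND 0 stood above all others without overlap, and for Muc5ac only the WT arrays of PND 0 and PND 10 overlapped, at 3.68 and 3.72.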

How the data were processed

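The deposited log2 values were made by the authors, who extracted probe intensities from Affymetrix Mouse Gene 1.0 ST arrays in Partek (version 6.5 per the labels), with RMA background correction, quantile normalization over the arrays and median polish, giving 1 log2 intensity per feature and array. RNA was amplified before hybridisation. Quantile normalization makes all arrays share 1 distribution, so changes are relative to it.

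From these values, limma 3.58.1 in R 4.3.3 was fitted with 1 mean per group over 36 arrays and 28940 features. A block of 6616 low-numbered features with no annotation was left out. A total of 17 contrasts were tested, with two-sided moderated tests, Benjamini-Hochberg adjustment within each contrast and a threshold of 0.05. Gene symbols came from the platform annotation (21218 features with 1 symbol, 1881 with several and 5841 with none). No column of the table was left unused. The number of arrays limits the precision.

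The 10 transcripts and the marker lists were chosen with earlier results of these data known, and no list was tested as a set. Named genes were the 10 transcripts, up to 4 called genes of largest change per described list and contrast, a few fixed cell markers, and the 5 genes most like Scgb1a1, Muc5b, Bpifa1 and Reg3g. Cyp2f2 and Clca1 in the adult comparisons fall outside this rule and were chosen after their values were seen. The fit was tested on simulated data with known changes. Alternatives covered normalization, moderation, array weights, feature filters, the groups fitted, the replicate number as a block, a 2-fold limit and each array left out in turn. The labels used here name no scan or hybridisation batch. Promoter sequences came from RefSeq.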

Additional observations from a re-analysis of the deposited data

Results flagged for a closer look

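In 60 sets of 4 arrays (10 transcripts in 6 groups), 3 held an array whose gap to its neighbour exceeded Dixon's 95% limit, and chance flags about 1 in 20 such sets. Agr2 read 2.92 in WT replicate 1 of PND 10, where the other 3 arrays read 3.65 to 3.74. Bpifa1 read 3.77 in Scnn1b-Tg replicate 1 of PND 3, where the others read 3.19 to 3.26. Bpifb1 read 3.16 in WT replicate 4 of PND 42 in SPF housing, where the others read 3.65 to 3.69. All 3 values are near background. Without that last array the adult SPF difference of Bpifb1 was no longer called.

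In 5 cases the genotype difference itself differed between ages by the test of the difference. The difference at PND 42 exceeded that at PND 3 by 2.66 for Scgb1a1, 1.75 for Scgb3a1 and 1.86 for Reg3g, and that at PND 10 by 2.21 for Scgb3a1 and 2.19 for Reg3g, all in SPF mice. Each had all adult Scnn1b-Tg arrays above all adult WT arrays. At PND 42 an array held 1 mouse and at the younger ages a pool of pups, and the part of pooling was not tested.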

How the results depend on the processing

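Of 53 called changes of single transcripts, 39 kept their call under every setting tried and 14 lost it under at least 1, and none changed sign. Among values not called, the sign differed in 88 of 1125 fits that left out 1 array and in 24 of 1447 other fits. The count of transcripts called between genotypes at PND 0 (0) was 0 to 2 with 1 array left out, and 2 with replicate 3 of both genotypes left out, a setting chosen after seeing the data. That setting also gave 1 for the difference between PND 3 and PND 0 (0 otherwise). With the compared groups fitted alone, the counts were 1 at PND 3 between genotypes (0 otherwise), 0 for PND 10 against PND 3 in WT (5 otherwise), 1 for PND 42 against PND 10 in WT (2 otherwise) and 5 for the genotype difference at PND 42 against PND 3 (3 otherwise). That last count was also 5 with array weights and 1 without moderation, and 1 to 4 with 1 array left out. PND 42 against PND 10 in WT also gave 1 with quantile normalization repeated, without moderation, with all features kept and with the replicate number as a block, and 1 to 2 with 1 array left out. The adult GF genotype count (5) was 3 to 5 with 1 array left out, lowest without Scnn1b-Tg replicate 2. The cause of these changes was not tested. Arrays with the same replicate number did not deviate together (median r -0.009 over 150 pairs, -0.18 to 0.24), and the block moved no other count by over 1.5 times. Every transcript had 1 feature, so an alternative feature could not be tried. Transcripts near background have only an upper limit on their level.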
